A study of Danio rerio with 12 samples.

Results

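Regenerating caudal fins of adult zebrafish (Danio rerio) at 10 days post amputation (dpa) were compared with fins taken before amputation (0 dpa, the uncut fin), to describe which transcripts had not returned to the uncut level and in which direction. The comparison rests on 6 of the 12 libraries of the series, the 3 titled 10 dpa and the 3 titled 0 dpa, and the other 6 libraries came from 2 and 3 dpa. All fish were of the AB-Tu strain and between 8 and 18 months old, and no transgene or drug was used in either group as far as the labels say. Every library pooled the fins of 6 fish, so the spread between libraries is a spread between pools and differences between single fish are averaged. The labels give neither the length of regenerate that was collected nor whether the uncut fin and the regenerate were cut at the same level along the ray. Polyadenylated RNA was sequenced, and levels are given as CPM, the counts of a gene in every 1000000 counts of its library after scaling.

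The zebrafish caudal fin is held up by segmented bony rays, each made by osteoblasts and joined to the next segment at a flexible joint, and the ray tips carry actinotrichia, stiff unmineralised fibrils of collagen and of proteins called actinodins. After amputation, the stump is covered by epidermis and forms a blastema, a mass of dividing cells that rebuilds the ray from its base towards its tip. As the regenerate grows out, newly made bone matrix is folded, secreted, cross-linked and mineralised, joints are laid down again, and pigment cells, nerves and vessels return.

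The 10 dpa libraries held 9637256 to 16101937 counts and the 0 dpa libraries 8833337 to 13436213. Of 33737 gene identifiers, 16612 passed the filter on low counts and were tested. Fin tissue was recognised in both groups. Summed over the list of epidermal keratins and junctions, levels were 71501 to 86588 CPM at 10 dpa, against 88063 to 113607 CPM at 0 dpa, and summed over the skeletal muscle list, which stands for tissue of the fin base, 94.2 to 147 CPM at 10 dpa, against 135 to 154 CPM at 0 dpa. Library 0 dpa replicate 3 had the highest of the uncut levels in 36.0% of all tested genes but in 12 of 12 fibrillar collagens, 42 of 50 mitotic and replication genes and 15 of 28 bone cell genes. Without that library 12 fibrillar collagens, 41 mitotic and replication genes and 9 bone cell genes were higher at 10 dpa, against 10, 37 and 9 with it.

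At 10 dpa, 1099 genes were higher and 462 were lower than in the uncut fin (edgeR quasi-likelihood test, Benjamini-Hochberg adjusted p under 0.05), 9.4% of the genes tested, with 6.62% higher and 2.78% lower. Genes that passed this test are said to rise or fall, changes are log2 values of 10 dpa minus 0 dpa with their standard error (SE), and the spread that each p-value measures is that between pools. A 2-fold difference was reached by 925 of the higher and 260 of the lower genes, and an 8-fold difference by 59 and 9 of them. For 7008 genes (42.2%), the 95% interval of the log2 change lay wholly between -1 and 1, so that these genes stood within 2-fold of the uncut level. Another 8057 genes (48.5%) neither passed the test nor had an interval that narrow, and for these the data do not say whether the uncut level had been regained. The libraries of the 2 stages did not overlap for 33.9% of the genes tested, with 10 dpa above in 19.5% and below in 14.5%. The count rests on all 6 libraries. Without 10 dpa replicate 1, 2 and 3 the fit called 756, 563 and 616 genes higher and 225, 169 and 138 lower, and without 0 dpa replicate 1, 2 and 3 it called 471, 374 and 1010 higher and 108, 109 and 453 lower. Of the genes that passed, 321 higher and 58 lower did so in each of these 6 fits. DESeq2 called 1364 higher and 997 lower, so the share of higher genes among those that passed was 70.4% by edgeR and 57.8% by DESeq2.

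**Figure D1:**
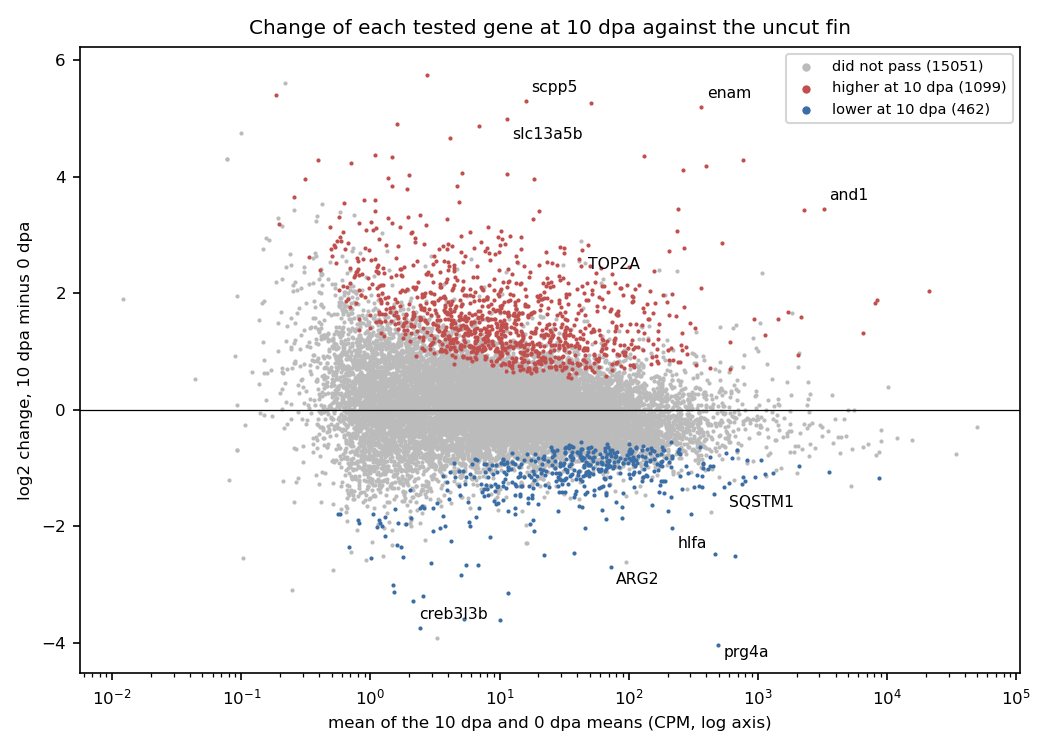
Log2 change (10 dpa minus 0 dpa) of each of the 16612 tested genes against its mean level in CPM (log axis). Red points are the 1099 genes that were higher, blue points the 462 that were lower and grey points those that did not pass. The mineral matrix genes enam and scpp5 lie near the top, and the lubricin gene prg4a is the lowest of the points that passed.

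Among the 38 lists of genes examined, those of matrix production and cell division held the highest shares of genes above the uncut level, as the plot of list members shows. All 8 tested members of the list of secretory phosphoproteins rose, as did 10 of 12 fibrillar collagens, 23 of 30 genes of collagen folding and processing and 37 of 50 mitotic and replication genes, beside 6.62% of all genes. Median log2 changes of these lists were 3.30, 2.00, 1.62 and 1.72, beside 0.04 over all genes. The first list also holds SPARC, a collagen-binding matrix protein. Its member odam passed the filter on low counts only through the 10 dpa libraries, so the odam call adds no support to that list's count or median. No member of the lists for smooth muscle and pericytes (12 tested), erythrocytes (6 tested) or fin sensory cells (10 tested) passed. Of 12 skeletal muscle genes 1 rose. Beside the 9.4% of all genes that passed, such counts in short lists do not set them apart. The erythrocyte list had a median log2 change of 0.91, and 2 members were higher with the 6 libraries alone. In 3 of its 6 genes the 10 dpa libraries lay above the 0 dpa libraries and in none below, beside 19.5% and 14.5% of all genes. Because the libraries were made from bulk fin tissue, more cells of a type and more RNA per cell cannot be told apart.

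**Figure D2:**
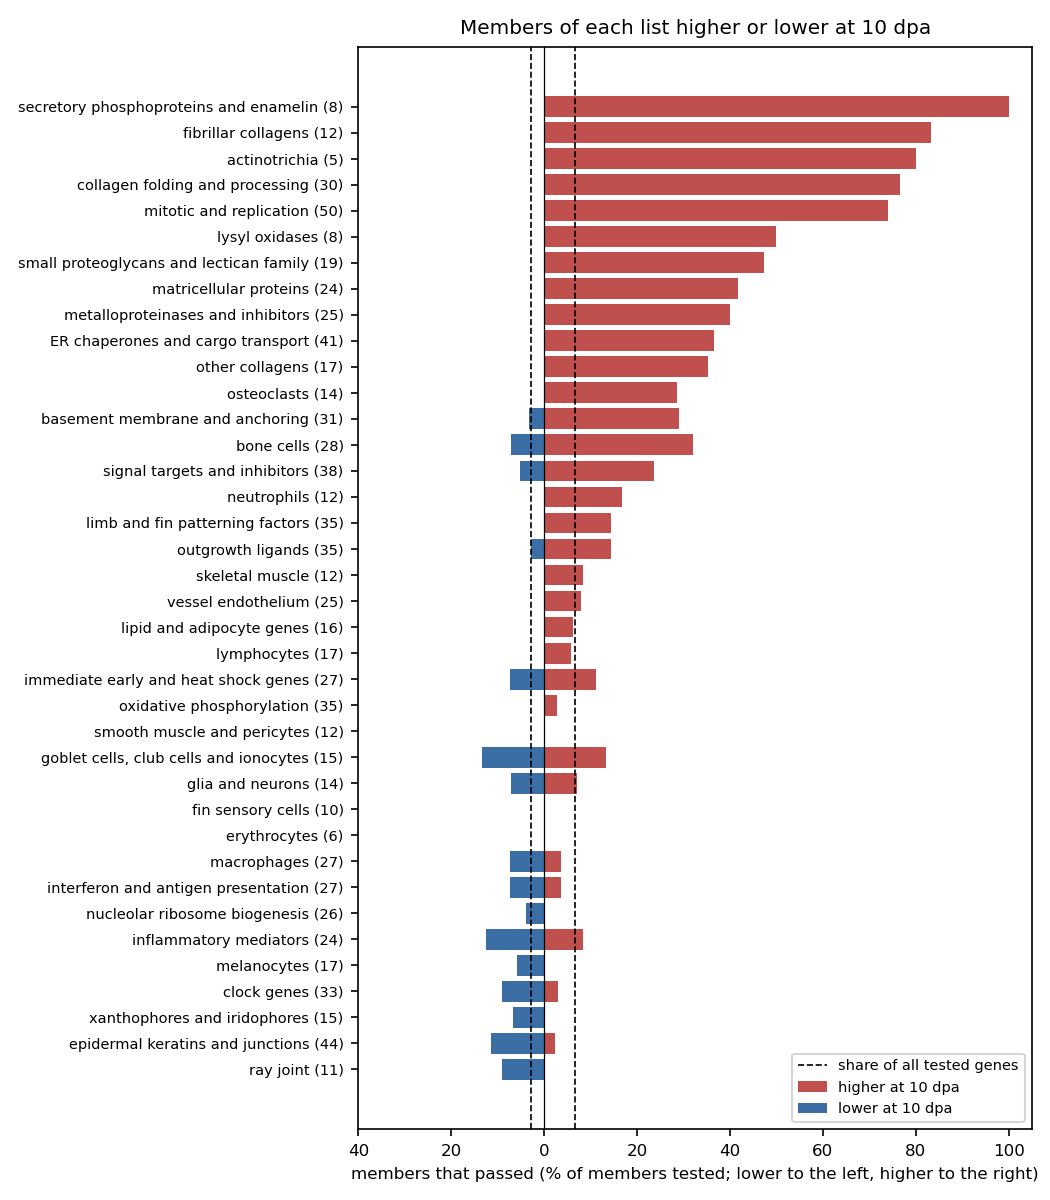
Share of each list's tested members (number in brackets) that were higher at 10 dpa (red, to the right) or lower (blue, to the left), in percent. Dashed lines mark the share of all tested genes, 6.62% higher and 2.78% lower, and lists of matrix and cell division genes reach far beyond the right-hand line.

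Actinotrichia genes had not returned to the uncut level. Of 5 tested, 4 rose and none fell, and the median log2 change was 3.14. In all 5 the 10 dpa libraries lay above the 0 dpa libraries, beside 19.5% of all genes. Of the 5 genes, 2 were higher without 10 dpa replicate 2 or 0 dpa replicate 2. The actinodin gene and1 stood at 8015, 3779 and 6016 CPM at 10 dpa, against 736, 130.1 and 764 CPM at 0 dpa, a 10.9-fold rise (log2 change 3.45 ± 0.65, adjusted p = 0.00680). Its relative and2 stood at 1701, 1117 and 1601 CPM at 10 dpa, against 131, 16.4 and 78.2 CPM at 0 dpa (log2 change 4.29 ± 0.96, adjusted p = 0.0158). In both genes every 10 dpa library lay above every 0 dpa library, and 0 dpa replicate 2 was the lowest of the uncut libraries. The gene and2 missed the threshold without 10 dpa replicate 2 or 0 dpa replicate 2 (adjusted p = 0.0501 to 0.0574 in these fits). For and2 the log2 change, 4.29 with all libraries, was 4.96 without 0 dpa replicate 1. The third actinodin gene, and3, rose 8.81-fold, with 23.2, 8.67 and 12.4 CPM at 10 dpa, against 2.05, 1.82 and 1.05 CPM at 0 dpa (adjusted p = 0.00557). Type II collagen, the collagen of cartilage and of actinotrichia, is present as a pair of identifiers under the symbol COL2A1. One (ENSDARG00000011407) had 142, 253 and 200.2 CPM at 10 dpa, against 48.3, 29.5 and 100.4 CPM at 0 dpa and rose (adjusted p = 0.0320). This COL2A1 identifier missed the threshold without 10 dpa replicate 2 or 3 or 0 dpa replicate 1 or 2 (adjusted p = 0.0770 to 0.131 in these fits). For COL2A1 the log2 change, 1.74 with all libraries, was 2.35 without 0 dpa replicate 3. The other (ENSDARG00000069093) had 11.3, 17.7 and 20.9 CPM at 10 dpa, against 1.80, 1.90 and 9.19 CPM at 0 dpa and did not pass (adjusted p = 0.0581). Without 0 dpa replicate 3 it passed, with a log2 change of 3.16 against 1.996 with all libraries (adjusted p = 0.00821).

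Genes for secreted proteins of mineralised tissue rose in all 8 tested members. In each the 10 dpa libraries lay above the 0 dpa libraries, beside 19.5% of all genes. The scpp genes, enamelin, ameloblastin, odam and osteopontin code for secreted proteins, and in other vertebrates several of them serve in the matrix of enamel, teeth and bone. Enamelin (enam) stood at 538, 579.6 and 1018 CPM at 10 dpa, against 38.3, 3.72 and 15.8 CPM at 0 dpa (log2 change 5.202 ± 1.07, adjusted p = 0.0109). The gene scpp5 stood at 31.2, 21.2 and 41.2 CPM at 10 dpa, against 1.89, 0.259 and 0 CPM at 0 dpa (log2 change 5.31 ± 0.79, adjusted p = 0.00212). Both were separated by a wide gap between the stages, and both had uncut levels that differed several-fold among themselves, so the size of the change is loosely set. For enam the log2 change, 5.202 with all libraries, was 6.20 without 0 dpa replicate 1. Without the filter on low counts enam missed the threshold (adjusted p = 0.0656). For scpp5 the log2 change, 5.31 with all libraries, was 7.64 without 0 dpa replicate 1. Ameloblastin (ambn) had 5.77, 3.90 and 10.7 CPM at 10 dpa, against 0.902, 0.519 and 1.63 CPM at 0 dpa, a 6.79-fold rise (adjusted p = 0.00460). Osteopontin (spp1), a bone matrix protein that also acts on immune cells, had 329.7, 264 and 344 CPM at 10 dpa, against 70.09, 65.7 and 124 CPM at 0 dpa, a 3.61-fold rise (adjusted p = 0.00278). The gene odam was near its detection limit in the uncut fin, with 1.68, 1.40 and 5.37 CPM at 10 dpa, against 0, 0.0865 and 0.349 CPM at 0 dpa (adjusted p = 0.00676). No library of 0, 2 or 3 dpa exceeded 0.459 CPM for odam, so it passed the filter on low counts only through the 10 dpa libraries. Its rise and lack of overlap therefore follow largely from the filter and add no support to the counts of this list. For odam the log2 change, 4.34 with all libraries, was 3.50 without 10 dpa replicate 3, 3.70 without 0 dpa replicate 1 and 5.76 without 0 dpa replicate 3.

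The other 3 members of this list passed with fewer of the libraries left out. Levels of scpp7 were 2.995, 9.20 and 14.1 CPM at 10 dpa, against 0.738, 0.173 and 0.931 CPM at 0 dpa (adjusted p = 0.0162). The gene scpp7 missed the threshold without 10 dpa replicate 2 or 3 or 0 dpa replicate 1 or 2 (adjusted p = 0.0557 to 0.0881 in these fits). Levels of scpp1 were 4.60, 8.96 and 6.51 CPM at 10 dpa, against 0.492, 0.173 and 3.37 CPM at 0 dpa (adjusted p = 0.0445). The gene scpp1 missed the threshold with any library other than 0 dpa replicate 3 left out (adjusted p = 0.0586 to 0.165 in these fits). It also missed with the 6 libraries alone in the fit (adjusted p = 0.0719). For scpp1 the log2 change, 2.41 with all libraries, was 4.29 without 0 dpa replicate 3. Osteonectin (SPARC), a collagen-binding matrix protein, had 9042, 10263 and 8851 CPM at 10 dpa, against 2993, 2229 and 6015 CPM at 0 dpa (adjusted p = 0.0274). SPARC missed the threshold with any library other than 0 dpa replicate 3 left out (adjusted p = 0.0543 to 0.119 in these fits). Of the 8 genes of this list, 5 were higher without 10 dpa replicate 2 or 3 or 0 dpa replicate 1 or 2.

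Of 12 fibrillar collagens 10 rose and none fell. In each of the 12 the 10 dpa libraries lay above the 0 dpa libraries, beside 19.5% of all genes. Summed over these collagens, levels were 59191 to 73303 CPM at 10 dpa, against 7024 to 30568 CPM at 0 dpa. The gene col11a1b, a chain of type XI collagen that sets fibril diameter, had 919, 962 and 892 CPM at 10 dpa, against 79.3, 33.7 and 268 CPM at 0 dpa (log2 change 2.87 ± 0.61, adjusted p = 0.0115). The gene col11a1b missed the threshold without 0 dpa replicate 1 (adjusted p = 0.0647). For col11a1b the log2 change, 2.87 with all libraries, was 4.03 without 0 dpa replicate 3. COL11A2, another chain of that type, had 391, 513 and 500.3 CPM at 10 dpa, against 40.003, 18.2 and 147 CPM at 0 dpa (adjusted p = 0.0218). COL11A2 missed the threshold without 10 dpa replicate 2 or 3 or 0 dpa replicate 1 or 2 (adjusted p = 0.0569 to 0.0990 in these fits). It also missed with the 6 libraries alone in the fit (adjusted p = 0.0581). For COL11A2 the log2 change, 2.78 with all libraries, was 4.01 without 0 dpa replicate 3. In both, 0 dpa replicate 3 stood well above its fellows. COL11A1, picked here after its values were seen because it passed with any 1 library left out, had 323, 396 and 326 CPM at 10 dpa, against 73.0, 45.7 and 144 CPM at 0 dpa (log2 change 1.99 ± 0.36, adjusted p = 0.00539). Of the 12 fibrillar collagens, 5 were higher without 10 dpa replicate 3, 4 without 10 dpa replicate 2, 3 without 0 dpa replicate 2 and 1 without 0 dpa replicate 1. Of 17 other collagens 6 rose, beside 6.62% of all genes. Of the 17, 2 were higher without 10 dpa replicate 3 and 1 without 10 dpa replicate 2 or 0 dpa replicate 1 or 2. Among these COL12A1 (ENSDARG00000078322), which sits on the surface of collagen fibrils, had 2969, 2658 and 2145 CPM at 10 dpa, against 809, 569 and 1052 CPM at 0 dpa, a 3.198-fold rise (adjusted p = 0.00278).

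Most genes for the enzymes and chaperones that fold and modify procollagen were also high. Of 30 tested genes 23 rose and none fell. In 26 the 10 dpa libraries lay above the 0 dpa libraries without overlap, beside 19.5% of all genes. The reticulocalbin gene rcn3, named for a calcium-binding protein of the endoplasmic reticulum (ER), had 39.5, 44.4 and 27.2 CPM at 10 dpa, against 4.26, 2.08 and 4.19 CPM at 0 dpa, a 10.6-fold rise (adjusted p = 0.00183). The prolyl hydroxylase subunit P4HA1, whose enzyme stabilises the triple helix, had 25.6, 36.2 and 24.5 CPM at 10 dpa, against 5.0004, 5.02 and 6.86 CPM at 0 dpa, a 5.14-fold rise (adjusted p = 0.00278). The collagen chaperone SERPINH1 (ENSDARG00000075954) had 94.1, 119.7 and 68.6 CPM at 10 dpa, against 23.7, 19.4 and 11.98 CPM at 0 dpa, a 5.12-fold rise (adjusted p = 0.00254). The lysyl hydroxylase PLOD2, which prepares collagen for cross-linking in bone, had 55.1, 57.4 and 40.7 CPM at 10 dpa, against 6.31, 2.34 and 13.7 CPM at 0 dpa (log2 change 2.80 ± 0.48, adjusted p = 0.00425). For PLOD2 the log2 change, 2.80 with all libraries, was 3.56 without 0 dpa replicate 3. Uncut levels ran from 5.0004 to 6.86 CPM for P4HA1, 2.08 to 4.26 CPM for rcn3 and 2.34 to 13.7 CPM for PLOD2. Of the 30 folding genes, 15 were higher without 0 dpa replicate 2. Of 8 lysyl oxidase genes, which cross-link collagen and elastin outside the cell, 4 rose, beside 6.62% of all genes. Lysyl oxidase itself (LOX) had 181, 125 and 170.3 CPM at 10 dpa, against 25.4, 17.5 and 65.6 CPM at 0 dpa (adjusted p = 0.00957). LOX missed the threshold without 0 dpa replicate 1 (adjusted p = 0.0555). For LOX the log2 change, 2.14 with all libraries, was 2.89 without 0 dpa replicate 3. Of the 8 lysyl oxidase genes, 1 was higher without 10 dpa replicate 2 or 0 dpa replicate 1 or 2.

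**Figure D3:**
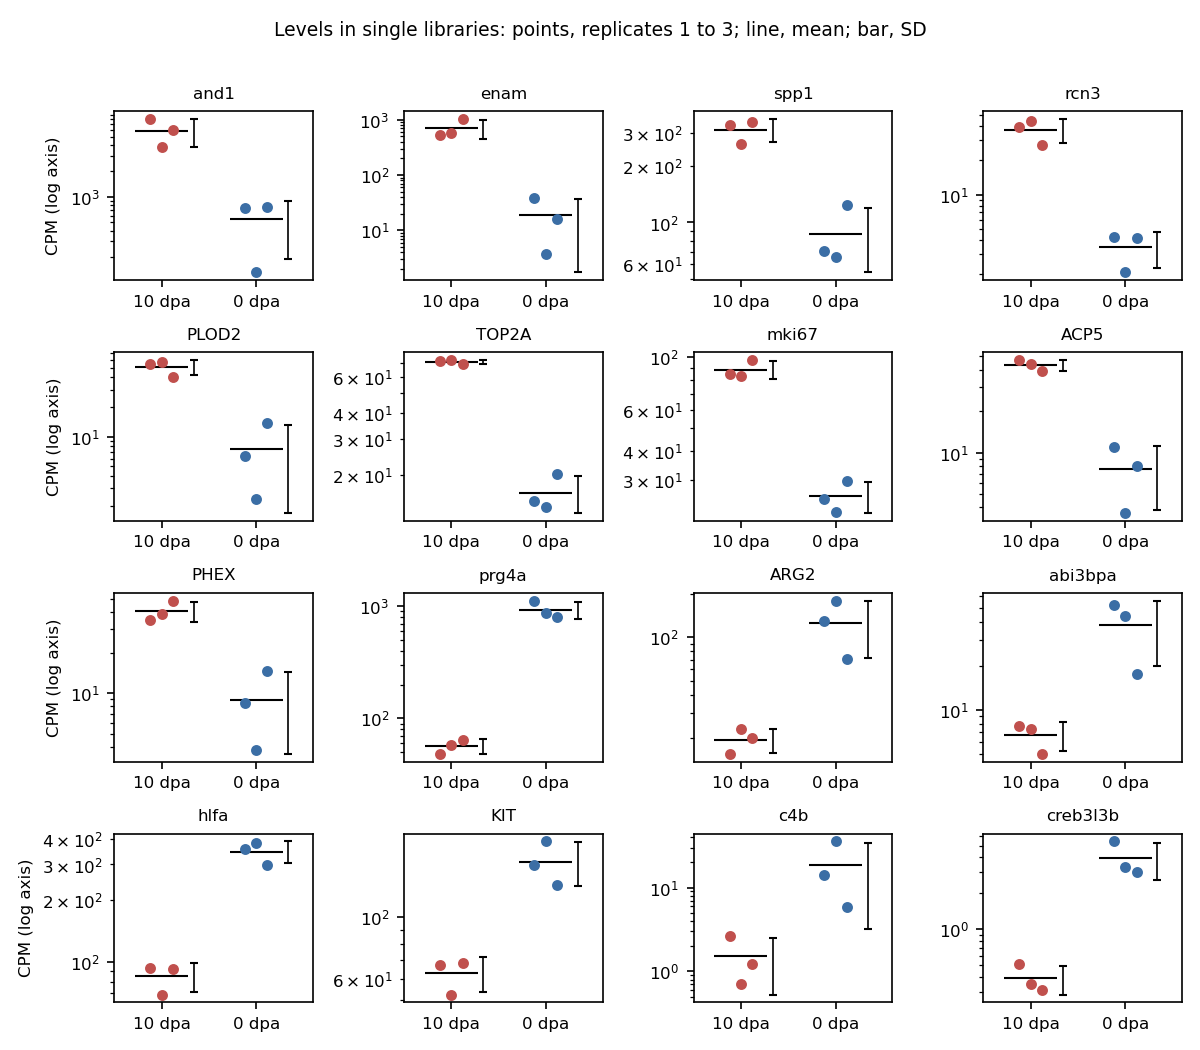
Levels of 16 genes in the single libraries (CPM, log axis), with 10 dpa in red on the left and 0 dpa in blue on the right. Points are replicates 1 to 3 from left to right, the line is the mean and the bar beside it the SD (n = 3), and in each panel the 2 stages do not overlap.

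Bone cell genes were mixed. Of 28 tested, 9 rose, 2 fell and 17 did not pass, beside 6.62% and 2.78% of all genes. The median log2 change was 0.68, beside 0.04 over all genes. The 10 dpa libraries lay above the 0 dpa libraries in 16 of the 28 and below them in 3, beside 19.5% and 14.5% of all genes. PHEX, an endopeptidase of osteoblasts that acts on mineralisation, had 34.8, 38.8 and 48.5 CPM at 10 dpa, against 8.44, 3.81 and 14.5 CPM at 0 dpa, a 4.60-fold rise (adjusted p = 0.00622). The alkaline phosphatase gene alpi.1, named for the intestinal enzyme, had 184, 208 and 199 CPM at 10 dpa, against 51.0, 32.8 and 49.8 CPM at 0 dpa, a 4.42-fold rise (adjusted p = 0.000455). The 3 libraries of each stage were close to one another in this gene. ENTPD5, an ectonucleotidase that zebrafish need for bone mineralisation, had 419, 389 and 452 CPM at 10 dpa, against 29.0, 20.4 and 101 CPM at 0 dpa (log2 change 3.07 ± 0.68, adjusted p = 0.0141). ENTPD5 missed the threshold without 10 dpa replicate 2 or 0 dpa replicate 1 or 2 (adjusted p = 0.0592 to 0.0726 in these fits). For ENTPD5 the log2 change, 3.07 with all libraries, was 4.09 without 0 dpa replicate 3. COL10A1, a network collagen made by zebrafish osteoblasts, had 2611, 5246 and 4609 CPM at 10 dpa, against 201, 81.1 and 869 CPM at 0 dpa (adjusted p = 0.0478). COL10A1 missed the threshold with any library other than 0 dpa replicate 3 left out (adjusted p = 0.0742 to 0.152 in these fits). It also missed with the 6 libraries alone in the fit (adjusted p = 0.0579). For COL10A1 the log2 change, 3.44 with all libraries, was 4.88 without 0 dpa replicate 3. SP7 (osterix), the transcription factor of committed osteoblasts, had 57.1, 51.6 and 49.5 CPM at 10 dpa, against 16.6, 9.17 and 19.1 CPM at 0 dpa (log2 change 1.82 ± 0.39, adjusted p = 0.0124). SP7 missed the threshold without 0 dpa replicate 2 (adjusted p = 0.0697).

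The osteoblast regulators RUNX2 (log2 change -0.04, 95% interval -0.91 to 0.83) and runx2b (log2 change -0.25, 95% interval -0.99 to 0.48), the phosphatase ALPL (log2 change -0.09, 95% interval -0.61 to 0.42) and SOST, an osteocyte inhibitor of Wnt signalling (log2 change -0.10, 95% interval -0.83 to 0.62), did not pass. Their intervals lay within 2-fold of the uncut level, which held for 6 of the 28 bone cell genes, beside 42.2% of all genes. PANX3 (log2 change 2.51, adjusted p = 0.0570) and PHOSPHO1 (log2 change 2.17, adjusted p = 0.0780) did not pass either. Both passed with the 6 libraries alone in the fit (adjusted p = 0.0372 and 0.0453). By DESeq2 PANX3 passed (adjusted p = 0.0445) and PHOSPHO1 did not (adjusted p = 0.0717). With RLE size factors, no filter or the replicate block neither passed (adjusted p = 0.0594 to 0.251). The ANKH identifier ENSDARG00000071724, named for a membrane protein that exports pyrophosphate and so restrains mineralisation, fell, with 28.1, 33.4 and 23.7 CPM at 10 dpa, against 57.3, 135 and 121 CPM at 0 dpa (log2 change -1.88 ± 0.33, adjusted p = 0.00457). The other ANKH identifier stood at 3.19 ± 0.868 CPM at 10 dpa and 2.79 ± 0.605 CPM at 0 dpa (mean ± SD, n = 3 each) and did not pass. The other bone cell gene that fell was a MEF2C identifier (ENSDARG00000029764), named for a transcription factor, with 27.4, 34.1 and 31.3 CPM at 10 dpa, against 46.2, 49.0 and 69.5 CPM at 0 dpa (adjusted p = 0.0463). This MEF2C identifier missed the threshold with any 1 of the 6 libraries left out (adjusted p = 0.0743 to 0.137 in these fits). The other MEF2C identifier (ENSDARG00000009418) went the other way, with a log2 change of 1.08, and did not pass (adjusted p = 0.0922). It passed as higher with the 6 libraries alone in the fit (adjusted p = 0.0318). Of 14 osteoclast genes 4 rose, none fell and 6 had intervals within 2-fold, beside 6.62%, 2.78% and 42.2% of all genes. Tartrate-resistant acid phosphatase (ACP5), the classical enzyme of bone-resorbing cells, had 46.7, 43.9 and 39.1 CPM at 10 dpa, against 10.98, 3.63 and 8.03 CPM at 0 dpa, a 5.72-fold rise (adjusted p = 0.00120). Of the 28 bone cell genes, 5 were higher without 10 dpa replicate 2, 3 without 0 dpa replicate 1 and 2 without 0 dpa replicate 2. Of the 14 osteoclast genes, 2 were higher without 10 dpa replicate 3 or 0 dpa replicate 2 and 1 without 10 dpa replicate 1 or 2 or 0 dpa replicate 1.

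**Figure D4:**
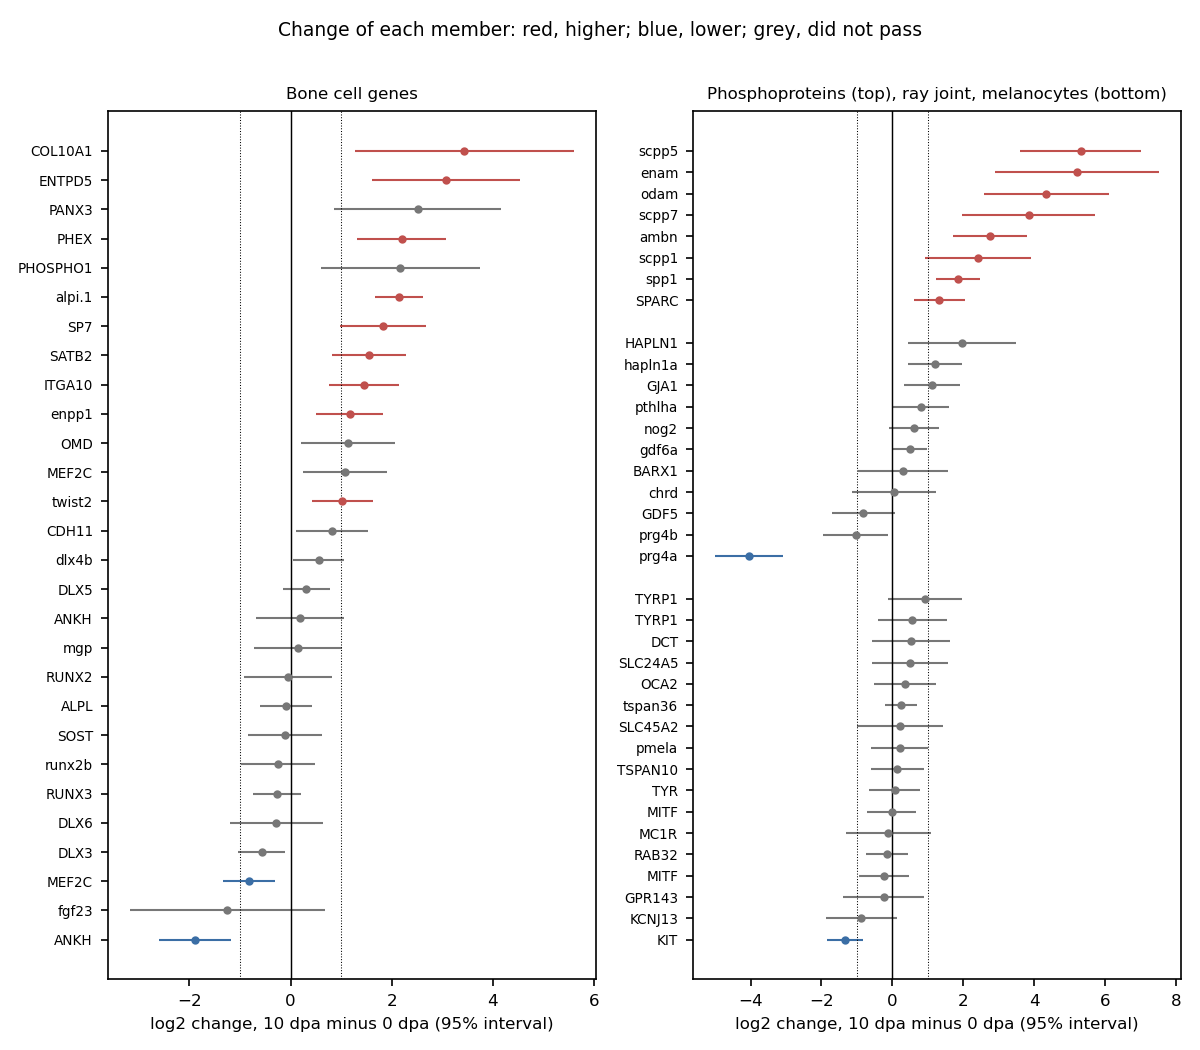
Log2 change with its 95% interval for each tested member of the lists of bone cells (left) and of secretory phosphoproteins, ray joint and melanocytes (right, from top to bottom). Red members were higher at 10 dpa, blue members lower, grey members did not pass, and dotted lines mark a 2-fold difference. All 8 genes of the phosphoprotein list, which also holds SPARC, lie to the right of 0, prg4a lies farthest to the left, and 16 of 17 melanocyte members did not pass.

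In the ray joint list 1 of 11 tested genes fell and none rose, beside 2.78% and 6.62% of all genes. With the 6 libraries alone in the fit 2 fell and 3 rose, and by DESeq2 1 fell and 2 rose. The 10 dpa libraries lay above the 0 dpa libraries in 5 of the 11 and below them in 2, beside 19.5% and 14.5% of all genes. The median log2 change was 0.49, beside 0.04 over all genes. The lubricin gene prg4a, whose product lubricates joint and tendon surfaces, had 48.2, 57.7 and 64.6 CPM at 10 dpa, against 1119, 878 and 799 CPM at 0 dpa (log2 change -4.04 ± 0.45, adjusted p = 0.000661). It had the most negative log2 change among the genes that passed. No library of one stage came near the other, and the fold differed little with any library left out (log2 change -4.14 to -3.88). None of the other 10 members passed with all 12 libraries in the fit. The second lubricin gene, prg4b, had 7.23, 5.47 and 5.37 CPM at 10 dpa, against 15.8, 15.5 and 5.47 CPM at 0 dpa (adjusted p = 0.141), and it passed without 0 dpa replicate 3 (adjusted p = 0.0464). GDF5, a growth factor that marks forming joints, had 6.94, 6.46 and 6.92 CPM at 10 dpa, against 13.7, 13.1 and 8.84 CPM at 0 dpa (adjusted p = 0.225), with 10 dpa below 0 dpa in every library, and it passed with the 6 libraries alone (adjusted p = 0.0399). By DESeq2 and with RLE size factors, no filter or the replicate block GDF5 did not pass (adjusted p = 0.168 to 0.245). The gap junction gene GJA1, which sets segment length in zebrafish fins, had 306, 232 and 224 CPM at 10 dpa, against 118, 91.7 and 142 CPM at 0 dpa (adjusted p = 0.0695), and it passed with the 6 libraries alone (adjusted p = 0.00916). The matrix linker hapln1a had 321, 250.2 and 263 CPM at 10 dpa, against 133, 106 and 126 CPM at 0 dpa (adjusted p = 0.0504), and also passed there (adjusted p = 0.00422). By DESeq2 GJA1 and hapln1a passed (adjusted p = 0.0366 and 0.0202), and with the replicate block hapln1a alone (adjusted p = 0.0418). With RLE size factors or no filter neither of them passed (adjusted p = 0.0563 to 0.0810). The parathyroid hormone-like gene pthlha had 9.72, 8.67 and 8.27 CPM at 10 dpa, against 6.56, 3.46 and 5.35 CPM at 0 dpa (adjusted p = 0.199).

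Several genes for proteins of provisional and growing matrix were high. Of 24 matricellular genes 10 rose and none fell, beside 6.62% and 2.78% of all genes. Of the 24 matricellular genes, 6 were higher without 10 dpa replicate 1 and 3 without 0 dpa replicate 2. Without 10 dpa replicate 2 or 3 or 0 dpa replicate 1, 5 were higher. Tenascin C (TNC, ENSDARG00000021948), a glycoprotein of growing and healing tissue, had 347, 433 and 289 CPM at 10 dpa, against 82.0, 31.2 and 47.4 CPM at 0 dpa, a 6.65-fold rise (adjusted p = 0.00112). The follistatin-like gene FSTL1 (ENSDARG00000039576) had 206, 333 and 249 CPM at 10 dpa, against 40.9, 32.3 and 78.1 CPM at 0 dpa, a 5.22-fold rise (adjusted p = 0.00278). Of 25 metalloproteinases and inhibitors 10 rose and none fell, beside the same shares of all genes. Of the 25 metalloproteinases and inhibitors, 5 were higher without 0 dpa replicate 2. A membrane-bound metalloproteinase, MMP15 (ENSDARG00000013072), had 36.1, 44.9 and 38.9 CPM at 10 dpa, against 5.08, 3.98 and 9.54 CPM at 0 dpa, a 6.51-fold rise (adjusted p = 0.000661), and the second MMP15 identifier (ENSDARG00000051962) rose 4.195-fold (adjusted p = 0.00421). ADAMTS18, a secreted metalloproteinase, had 7.60, 7.45 and 7.44 CPM at 10 dpa, against 1.31, 0.519 and 1.40 CPM at 0 dpa, a 7.02-fold rise (adjusted p = 0.00433).

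Among 31 genes of the basement membrane and its anchors 9 rose and 1 fell, beside 6.62% and 2.78% of all genes. Of the 31, 5 were higher without 10 dpa replicate 1 and 4 without 10 dpa replicate 2 or 0 dpa replicate 1. Without 10 dpa replicate 3 or 0 dpa replicate 2, 3 were higher. Nidogen 2 (NID2), a linker of laminin and type IV collagen, had 52.2, 57.4 and 53.6 CPM at 10 dpa, against 11.2, 3.98 and 10.01 CPM at 0 dpa, a 6.49-fold rise (adjusted p = 0.000661), with nearly equal levels in the 10 dpa libraries. FREM2, which anchors epidermis to dermis in growing fins, had 57.3, 58.8 and 38.6 CPM at 10 dpa, against 17.6, 7.87 and 6.52 CPM at 0 dpa (adjusted p = 0.00460). The laminin chain lamb3, of the anchoring laminin of skin, fell, with 73.7, 137 and 70.9 CPM at 10 dpa, against 284, 109 and 356 CPM at 0 dpa (adjusted p = 0.0303), and the stages overlapped. The gene lamb3 missed the threshold without 10 dpa replicate 1 or 3 or 0 dpa replicate 1 or 3 (adjusted p = 0.0916 to 0.116 in these fits). It also missed with the 6 libraries alone in the fit (adjusted p = 0.0507). Of 19 small proteoglycans and lecticans 9 rose and none fell, beside the same shares of all genes. Of the 19, 5 were higher without 0 dpa replicate 3 and 2 without 10 dpa replicate 1 or 0 dpa replicate 2. Without 10 dpa replicate 2 or 3 or 0 dpa replicate 1, 3 were higher.

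Most cell division genes were above the uncut level. Of 50 tested members 37 rose and none fell. In 43 the 10 dpa libraries lay above the 0 dpa libraries, beside 19.5% of all genes. Topoisomerase TOP2A, which untangles chromosomes at mitosis, had 71.4, 72.4 and 69.5 CPM at 10 dpa, against 14.9, 14.01 and 20.2 CPM at 0 dpa, a 4.35-fold rise (adjusted p = 0.000229). The proliferation marker mki67 had 85.2, 83.0 and 97.6 CPM at 10 dpa, against 25.1, 22.1 and 29.8 CPM at 0 dpa, a 3.46-fold rise (adjusted p = 0.000661). Cyclin B1 (CCNB1), which drives entry into mitosis, had 10.4, 18.5 and 14.2 CPM at 10 dpa, against 2.54, 1.30 and 2.91 CPM at 0 dpa, a 6.44-fold rise (adjusted p = 0.00278). In these genes the 10 dpa libraries stood well apart from every uncut library. Between 28 and 41 of the 50 mitotic and replication genes were higher with any 1 library left out. Of 26 nucleolar genes of ribosome biogenesis none rose, 1 fell and 21 had intervals within 2-fold of the uncut level, beside 42.2% of all genes. Summed over this list, levels were 800 to 870 CPM at 10 dpa, against 901 to 1222 CPM at 0 dpa, lower without overlap. The median log2 change of the list was 0.03, beside 0.04 over all genes. In 3 of the 26 genes the 10 dpa libraries lay below the 0 dpa libraries and in none above, beside 14.5% and 19.5% of all genes. The list member that fell was DDX21, a nucleolar RNA helicase, with 49.8, 70.31 and 70.8 CPM at 10 dpa, against 171, 135 and 122 CPM at 0 dpa (log2 change -1.17 ± 0.20, adjusted p = 0.00429). An identifier outside this list, under the symbol GTPBP4 and named for a ribosome assembly GTPase, also fell and is given below. Its means at 0, 2, 3 and 10 dpa were 1076, 244, 254 and 446 CPM. The whole nucleolar list summed to 1066, 1567, 1140 and 829 CPM, a different course. Whether the symbol is right for this identifier was not tested. Of 41 ER chaperone and cargo transport genes 15 rose and none fell, beside 6.62% and 2.78% of all genes. Intervals within 2-fold were found for 14, beside 42.2% of all genes. Of the 41, 9 were higher without 0 dpa replicate 1, 8 without 10 dpa replicate 2 and 5 without 0 dpa replicate 2. The cargo receptor LMAN1 had 33.97, 45.8 and 26.6 CPM at 10 dpa, against 8.36, 6.83 and 11.2 CPM at 0 dpa, a 4.06-fold rise (adjusted p = 0.00696), and MANF, a secreted ER stress protein, 10.23, 9.08 and 9.72 CPM at 10 dpa, against 4.43, 2.85 and 3.61 CPM at 0 dpa, a 2.66-fold rise (adjusted p = 0.00347).

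Signal genes of fin outgrowth were mixed. Of 35 ligand genes 5 rose, 1 fell and 9 had intervals within 2-fold, beside 6.62%, 2.78% and 42.2% of all genes. Of the 35 ligand genes, 3 were higher without 0 dpa replicate 1 or 2. Midkine (MDK, ENSDARG00000036036), a heparin-binding growth factor, had 521, 685 and 547 CPM at 10 dpa, against 121, 89.96 and 201 CPM at 0 dpa, a 4.26-fold rise (adjusted p = 0.00200). The leptin gene lepb, a regeneration-induced gene in zebrafish fins, had 4.68, 3.55 and 3.204 CPM at 10 dpa, against 1.07, 0.173 and 0 CPM at 0 dpa (adjusted p = 0.00653). For lepb the log2 change, 3.05 with all libraries, was 5.16 without 0 dpa replicate 1. Sonic hedgehog (SHH, ENSDARG00000068567), which comes from the basal epidermis over each growing ray, had 5.55, 7.57 and 7.96 CPM at 10 dpa, against 1.31, 0.865 and 2.91 CPM at 0 dpa (adjusted p = 0.0141). This SHH identifier missed the threshold without 0 dpa replicate 1 or 2 (adjusted p = 0.0734 to 0.0774 in these fits). The chemokine CXCL12 fell, with 34.7, 24.9 and 29.9 CPM at 10 dpa, against 86.1, 83.3 and 62.4 CPM at 0 dpa (adjusted p = 0.0114). CXCL12 missed the threshold without 0 dpa replicate 1 or 2 (adjusted p = 0.0506 to 0.0514 in these fits).

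Of 38 signal targets and inhibitors 9 rose, 2 fell and 16 had intervals within 2-fold, beside 6.62%, 2.78% and 42.2% of all genes. Of the 38, 4 were higher without 10 dpa replicate 3 and 3 without 0 dpa replicate 1 or 2. The secreted Wnt modulator DKK3 had 201, 173 and 274 CPM at 10 dpa, against 57.6, 27.8 and 98.9 CPM at 0 dpa, a 3.52-fold rise (adjusted p = 0.00894). The retinoic acid-degrading enzyme CYP26A1 had 84.1, 119.6 and 167 CPM at 10 dpa, against 14.02, 20.8 and 39.6 CPM at 0 dpa (adjusted p = 0.0182). CYP26A1 missed the threshold without 10 dpa replicate 2 or 3 or 0 dpa replicate 1 or 2 (adjusted p = 0.0579 to 0.0916 in these fits). The secreted Wnt inhibitor WIF1 fell, with 51.0, 48.8 and 64.7 CPM at 10 dpa, against 132, 107 and 109 CPM at 0 dpa (adjusted p = 0.0337). WIF1 missed the threshold with any 1 of the 6 libraries left out (adjusted p = 0.0520 to 0.116 in these fits). Among 35 patterning factors 5 rose, none fell and 8 had intervals within 2-fold, beside the same shares of all genes. Of the 35 patterning factors, 2 were higher without 10 dpa replicate 1, 2 or 3. Without 0 dpa replicate 1, 1 was higher, and without 0 dpa replicate 2, none. SALL1 (ENSDARG00000074319), a zinc finger factor of limb buds, had 172, 142 and 133 CPM at 10 dpa, against 74.6, 55.7 and 64.9 CPM at 0 dpa (log2 change 1.19 ± 0.24, adjusted p = 0.00838). This SALL1 identifier missed the threshold without 0 dpa replicate 2 (adjusted p = 0.0515).

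In the lists for pigment cells, nerves and vessels, the counts of genes that passed are to be read beside the 9.4% of all genes that did. Of 17 melanocyte genes none rose and 1 fell, and the median log2 change was 0.14, beside 0.04 over all genes. Intervals within 2-fold were found for 6 of the 17, beside 42.2% of all genes, so for most members a return to the uncut level is not shown. Tyrosinase (TYR), which starts the making of melanin, had 26.1, 21.5 and 24.9 CPM at 10 dpa, against 25.8, 26.9 and 16.4 CPM at 0 dpa (log2 change 0.06, 95% interval -0.65 to 0.78), so the stages overlapped. The melanosome gene pmela had 197, 135 and 159.8 CPM at 10 dpa, against 108, 155 and 165 CPM at 0 dpa (log2 change 0.20, 95% interval -0.61 to 1.02). The gene that fell was KIT, the receptor that melanocytes need to migrate and survive, which fell, with 67.3, 52.4 and 68.4 CPM at 10 dpa, against 154, 187 and 131 CPM at 0 dpa (log2 change -1.33 ± 0.24, adjusted p = 0.00518). Of 14 glial and neuronal genes 1 rose, 1 fell and 3 had intervals within 2-fold. Of 25 vessel endothelium genes 2 rose, none fell and 6 had intervals within 2-fold. Such intervals were found for 42.2% of all genes. In 11 of the 25 vessel genes the 10 dpa libraries lay above the 0 dpa libraries and in none below, beside 19.5% and 14.5% of all genes. Of the 25 vessel genes, 1 was higher without 10 dpa replicate 3 or 0 dpa replicate 1. None was higher without 10 dpa replicate 2 or 0 dpa replicate 2. With the 6 libraries alone in the fit, 7 of the vessel genes were higher. Von Willebrand factor (vwf), a clotting protein of endothelium, had 8.04, 13.5 and 8.99 CPM at 10 dpa, against 4.51, 3.98 and 3.26 CPM at 0 dpa (log2 change 1.37 ± 0.29, adjusted p = 0.0116). The gene vwf missed the threshold without 10 dpa replicate 2 or 0 dpa replicate 2 (adjusted p = 0.0559 to 0.0722 in these fits). Of 15 xanthophore and iridophore genes none rose and 1 fell, and that call was lost without 10 dpa replicate 2 or 3 or 0 dpa replicate 1 or 2. Only 1 of the 15 had an interval within 2-fold. In 3 of the 15 the 10 dpa libraries lay above the 0 dpa libraries and in 5 below, beside the same 19.5% and 14.5%.

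Of 44 epidermal keratin and junction genes 1 rose, 5 fell and 20 had intervals within 2-fold, beside 6.62%, 2.78% and 42.2% of all genes, and the median log2 change was -0.27. Of the 44, 2 were lower without 0 dpa replicate 2 or 3 and 1 without 10 dpa replicate 1. None was lower without 10 dpa replicate 3 or 0 dpa replicate 1. KLF4, a factor of outer epidermal layers, had 32.0, 63.4 and 19.7 CPM at 10 dpa, against 181, 104 and 134 CPM at 0 dpa (adjusted p = 0.0178). KLF4 missed the threshold without 10 dpa replicate 1 or 3 or 0 dpa replicate 1 (adjusted p = 0.0631 to 0.0761 in these fits). For KLF4 the log2 change, -1.86 with all libraries, was -2.44 without 10 dpa replicate 2. Of 27 macrophage genes 1 rose and 2 fell, beside 6.62% and 2.78% of all genes. Of the 27, none was lower with any 1 library other than 10 dpa replicate 1 left out. Those that fell were the invariant chain genes cd74b and cd74a, which serve antigen presentation. The level of cd74b was 7273, 3617 and 5169 CPM at 10 dpa, against 11489.8, 12102 and 12759 CPM at 0 dpa (adjusted p = 0.0353). The gene cd74b missed the threshold with any library other than 10 dpa replicate 1 left out (adjusted p = 0.0679 to 0.117 in these fits). Summed over the macrophage list, levels were 8068 to 14613 CPM at 10 dpa, against 20195 to 21735 CPM at 0 dpa, and cd74b and cd74a made up most of that sum in both stages. Of 24 inflammatory mediators 2 rose and 3 fell, beside 6.62% and 2.78% of all genes. Of the 24, 1 was lower without 10 dpa replicate 1, 2 or 3 or 0 dpa replicate 2.

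Genes for enzymes that use arginine were among the inflammatory mediators that fell. Arginase 2 (ARG2), the mitochondrial enzyme that splits arginine, had 15.5, 22.9 and 20.1 CPM at 10 dpa, against 129, 178 and 70.27 CPM at 0 dpa (log2 change -2.69 ± 0.33, adjusted p = 0.000954), with 10 dpa far below 0 dpa in every library. Inducible nitric oxide synthase (NOS2, ENSDARG00000026925), which turns arginine into nitric oxide, had 149, 77.1 and 199 CPM at 10 dpa, against 432, 1139 and 788 CPM at 0 dpa (log2 change -2.47 ± 0.61, adjusted p = 0.0241). This NOS2 identifier missed the threshold without 10 dpa replicate 1, 2 or 3 or 0 dpa replicate 2 (adjusted p = 0.0512 to 0.106 in these fits). Summed over the inflammatory mediators, levels were 4212 to 5938 CPM at 10 dpa, against 10195 to 11299.6 CPM at 0 dpa, without overlap. Most of that sum came from ptgdsb.1, named for a prostaglandin D synthase and picked here after its values were seen. It had 3801, 2258 and 2944 CPM at 10 dpa, against 7718, 7308 and 7307 CPM at 0 dpa and did not pass (adjusted p = 0.109). The other mediator that fell was ptgdsb.2, named for the same enzyme (log2 change -1.45, adjusted p = 0.0435). The gene ptgdsb.2 missed the threshold with any library other than 0 dpa replicate 3 left out (adjusted p = 0.0994 to 0.138 in these fits). Of 12 neutrophil genes 2 rose and none fell, beside 6.62% and 2.78% of all genes. The level summed over that list was 908 to 913 CPM at 10 dpa, against 669 to 948 CPM at 0 dpa. Of the 12 neutrophil genes, 1 was higher without 10 dpa replicate 2 or 0 dpa replicate 1 and none without 10 dpa replicate 1 or 3 or 0 dpa replicate 2.

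Beyond the lists, the naming rule picked genes that fell in every fit with 1 library left out. Complement component c4b had 2.63, 0.698 and 1.24 CPM at 10 dpa, against 14.1, 35.6 and 5.93 CPM at 0 dpa (adjusted p = 0.00625). For c4b the log2 change, -3.61 with all libraries, was -4.31 without 10 dpa replicate 1 and -2.73 without 0 dpa replicate 2. The gene creb3l3b, named for a membrane-bound transcription factor, had 0.511, 0.349 and 0.310 CPM at 10 dpa, against 5.41, 3.29 and 3.03 CPM at 0 dpa (log2 change -3.29 ± 0.52, adjusted p = 0.00278). The fibrinogen-like gene fgl2b had 0.438, 0.466 and 0.620 CPM at 10 dpa, against 4.18, 7.53 and 2.21 CPM at 0 dpa (log2 change -3.202 ± 0.49, adjusted p = 0.00239). In each of the 3 genes the stages did not overlap. The matrix protein gene abi3bpa had 7.74, 7.33 and 4.96 CPM at 10 dpa, against 51.8, 43.9 and 17.6 CPM at 0 dpa (log2 change -2.49 ± 0.36, adjusted p = 0.00196), the Polycomb gene cbx7a 18.5, 7.74 and 8.37 CPM at 10 dpa, against 71.5, 77.6 and 41.9 CPM at 0 dpa (log2 change -2.46 ± 0.36, adjusted p = 0.00200), and the autophagy receptor SQSTM1 293, 304 and 341 CPM at 10 dpa, against 823, 815 and 710.3 CPM at 0 dpa (log2 change -1.32 ± 0.27, adjusted p = 0.00901). For SQSTM1 and the GTPBP4 identifier (436, 344 and 557 CPM at 10 dpa, against 1202, 1184 and 840.4 CPM at 0 dpa, adjusted p = 0.00461) every uncut pool lay above each regenerate.

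Rises outside the lists included slc13a5b, named for a citrate transporter, with 16.9, 14.1 and 35.5 CPM at 10 dpa, against 1.15, 0 and 0.931 CPM at 0 dpa (adjusted p = 0.00563). For slc13a5b the log2 change, 4.99 with all libraries, was 5.71 without 0 dpa replicate 1 and 4.38 without 0 dpa replicate 2. The angiotensin receptor gene AGTR1 (ENSDARG00000045443) had 2.70, 3.32 and 1.65 CPM at 10 dpa, against 0.164, 0.0865 and 0.233 CPM at 0 dpa (adjusted p = 0.00680). Both genes were barely detected in the uncut fin. EFEMP2, an elastic fibre protein (ENSDARG00000094324), had the smallest p among the genes named, with 40.9, 49.4 and 52.5 CPM at 10 dpa, against 10.4, 7.01 and 8.03 CPM at 0 dpa, a 5.60-fold rise (adjusted p = 0.000208).

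Set beside the earlier stages, which share the uncut libraries as their baseline, the genes followed several courses. Mean levels at 0, 2, 3 and 10 dpa were 543, 4405, 23641 and 5937 CPM for and1, 19.3, 302, 2281 and 712 CPM for enam and 0.715, 4.002, 98.6 and 31.2 CPM for scpp5. These stood highest at 3 dpa. For spp1 the means were 86.5, 84.9, 33.3 and 313 CPM, and for odam 0.145, 0.143, 0.296 and 2.82 CPM, so that both stood highest at 10 dpa. The joint gene prg4a averaged 932, 5.74, 3.62 and 56.8 CPM, KIT 157, 17.0, 14.7 and 62.7 CPM and ARG2 126, 16.7, 20.6 and 19.5 CPM. Of these prg4a and KIT stood at 10 dpa between their 3 dpa and uncut means, while ARG2 at 10 dpa was close to its 2 and 3 dpa means. Tyrosinase (TYR) averaged 23.0, 0.662, 2.40 and 24.2 CPM and stood at 10 dpa within the range of its uncut libraries. Differences from 2 and 3 dpa are given as levels and were not tested here.

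**Figure D5:**
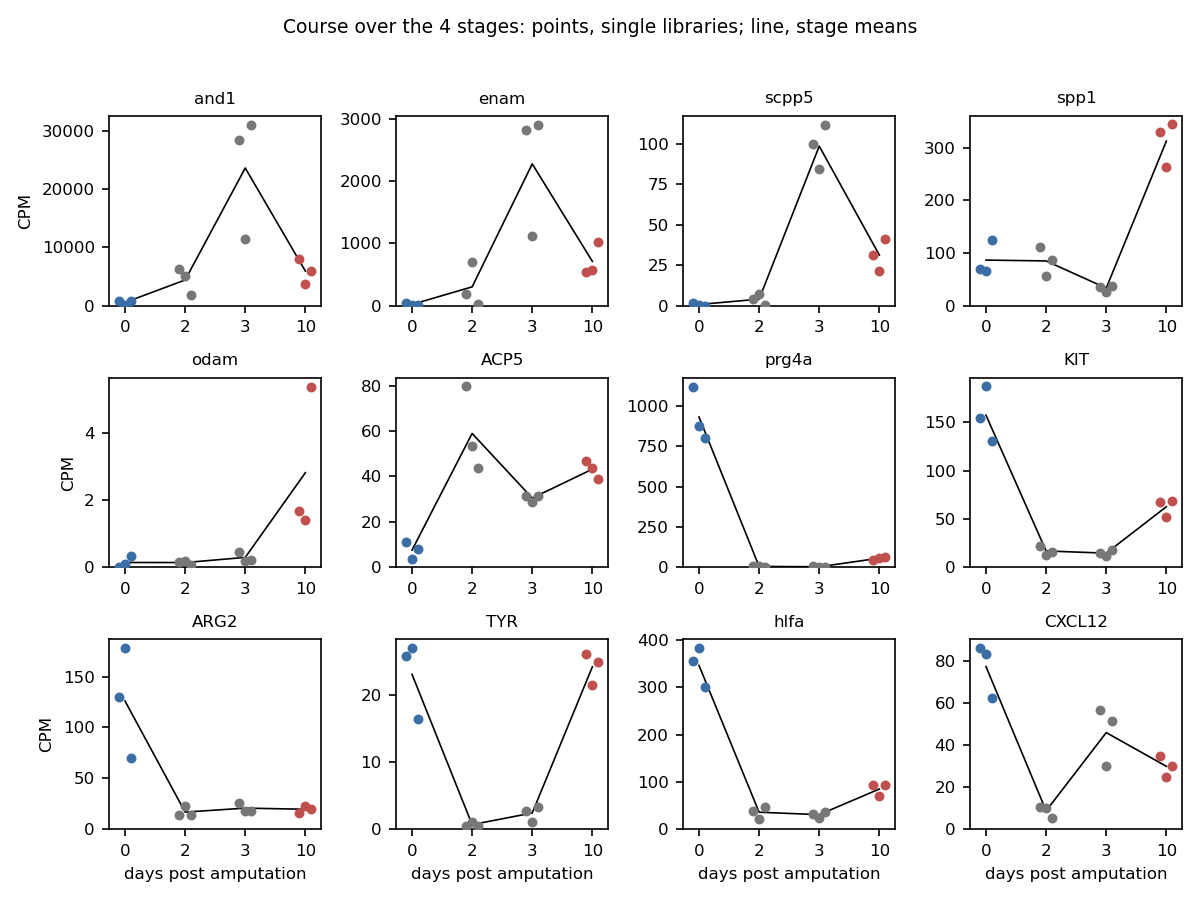
Levels of 12 genes (CPM) at 0, 2, 3 and 10 dpa, with stages at equal spacing. Points are single libraries (blue 0 dpa, red 10 dpa, grey 2 and 3 dpa) and the line joins the stage means. The top row shows and1, enam and scpp5 highest at 3 dpa and spp1 highest at 10 dpa, and TYR is back in the range of the uncut fin while prg4a and ARG2 are not.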

How the data were processed

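The authors deposited 1 table of raw counts, with a row per Ensembl gene identifier and a column per library. Totals of the 10 dpa and 0 dpa libraries lay between 8833337 and 16101937. Columns were matched to samples by the library name that the labels quote. Libraries were made with a SENSE mRNA kit and sequenced on a SOLiD Wildfire, per the labels' protocols. The sources used here give no aligner, genome build, counting program or use of strand, so counts of genes with a close copy, and of genes that overlap on either strand, are uncertain. A table of gene names gave a symbol to 21939 of the 33737 identifiers (65.0%). Symbols in capitals follow the human gene and leave the zebrafish paralog unnamed.

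All 12 libraries entered 1 edgeR fit (version 4.0.16, R version 4.3.3) with TMM scaling, filterByExpr at a count minimum of 10, stage as the only term and the robust quasi-likelihood test, checked on simulated counts. The 95% interval of each log2 change came from the same fit. Since replicates varied beyond counting error, no counting intervals are given. Alternatives were DESeq2 (version 1.42.0), RLE size factors, no filter, the 6 libraries alone, a replicate term, and leaving out each of the 6 libraries in turn, always with the rest of the 12 in the fit.

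The 38 lists and their members, the tests and the naming rule were chosen with earlier results of these data known. Of 1057 members written, 712 matched by symbol and 178 only without a paralog letter, and 823 distinct identifiers were tested. Genes were named from the largest changes and smallest p-values among those that had a symbol, 10 counts or more in every library of the stage with the higher level and no overlap between stages, and that passed with any 1 library left out; from each list, the 3 members at most with the greatest rise and the 3 with the greatest fall, or, where none passed, the 2 with the lowest p. Members of the actinotrichia, bone, joint, phosphoprotein and melanocyte lists could each be named. A gene outside this rule is said to have been picked after its values were seen.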

Additional observations from a re-analysis of the deposited data

How the results depend on the processing

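None of the 187 genes that the naming rule allowed passed in one direction and took the other under an alternative. The rule itself largely fixed this. Genes named by size of change or smallest p had to keep direction and pass with any 1 library left out, and most others were chosen because they passed. The count of lower genes, 462, was 869 with the 6 libraries alone, 997 by DESeq2 and 868 with the replicate number as a block, and lay between 424 and 552 without the filter and with RLE size factors. The count of higher genes, 1099, was 1429, 1364 and 1420 in the first 3 of these and lay between 963 and 987 in the other 2. Leaving out 1 library gave 374 to 1010 higher genes, 108 to 453 lower genes and 5525 to 6278 genes with an interval within 2-fold, against 7008. The other settings that gave such intervals kept 6987 to 8247. RLE size factors moved the median log2 change of all genes to -0.01, against 0.04. Library names carry a field with 1 value for each replicate number, and what it marks is not given in the labels. Deviations from the stage means correlated at 0.116, -0.0283 and 0.186 between 10 dpa and 0 dpa libraries of the same number, for replicates 1, 2 and 3. Only replicate 3 of 10 dpa correlated best with its own number. So few values cannot decide whether libraries of the same number share an effect, which was not tested. Of these 187 genes, 180 kept their side of the threshold by DESeq2, 185 with RLE size factors, 159 without the filter and 179 with the replicate block, and 127 without either 0 dpa replicate 1 or 0 dpa replicate 2. Of all 1561 genes that passed, 560 kept their call without 0 dpa replicate 1 and 467 without 0 dpa replicate 2. With 3 pools a stage, 8057 genes could be called neither changed nor within 2-fold. Depth limits genes near 0 CPM at 0 dpa (scpp5, odam, lepb), whose folds depend on single libraries.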

Other observations

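Genes outside the lists, picked after their values were seen from those that passed with any 1 library left out, included more of the secreted matrix and of the ER. The metalloproteinase mmp20b, named for an enamel protease of mammals, had 7.89, 7.57 and 11.5 CPM at 10 dpa, against 0.574, 0.0865 and 1.75 CPM at 0 dpa (log2 change 3.56 ± 0.58, adjusted p = 0.00337). For mmp20b the log2 change, 3.56 with all libraries, was 4.70 without 0 dpa replicate 3. The microfibril gene mfap2 had 93.6, 108 and 109.8 CPM at 10 dpa, against 12.2, 9.77 and 35.7 CPM at 0 dpa (log2 change 2.44 ± 0.48, adjusted p = 0.00832). For mfap2 the log2 change, 2.44 with all libraries, was 3.24 without 0 dpa replicate 3. The hyaluronan synthase HAS1 had 5.55, 9.08 and 2.997 CPM at 10 dpa, against 0.738, 0.865 and 1.05 CPM at 0 dpa (log2 change 2.76 ± 0.38, adjusted p = 0.00152), and the hyaluronidase family gene HYAL4 had 6.79, 8.67 and 5.37 CPM at 10 dpa, against 0.656, 0.519 and 1.86 CPM at 0 dpa (log2 change 2.85 ± 0.51, adjusted p = 0.00469), so genes for making hyaluronan and of the family that degrades it were both above the uncut level. For HYAL4 the log2 change, 2.85 with all libraries, was 3.55 without 0 dpa replicate 3. The ER peroxidases GPX7 (7.74, 7.74 and 5.79 CPM at 10 dpa, against 0.656, 0.259 and 1.40 CPM at 0 dpa, log2 change 3.27 ± 0.51, adjusted p = 0.00274) and GPX8 (16.4, 31.4 and 21.7 CPM at 10 dpa, against 3.52, 3.89 and 4.54 CPM at 0 dpa, log2 change 2.55 ± 0.46, adjusted p = 0.00496) rose. For GPX7 the log2 change, 3.27 with all libraries, was 3.92 without 0 dpa replicate 3. Vitamin K epoxide reductase (VKORC1), which recycles the cofactor for gamma-carboxylation, had 5.99, 7.45 and 5.89 CPM at 10 dpa, against 0.820, 0.865 and 2.56 CPM at 0 dpa (log2 change 2.25 ± 0.44, adjusted p = 0.00748). For VKORC1 the log2 change, 2.25 with all libraries, was 2.93 without 0 dpa replicate 3. Among lower genes were the hypoxia-inducible factor gene EPAS1 (ENSDARG00000008697, 7.67, 5.18 and 10.4 CPM at 10 dpa, against 25.5, 25.2 and 35.6 CPM at 0 dpa, log2 change -1.90 ± 0.39, adjusted p = 0.00957), the Polycomb methyltransferase gene ezh1 (43.1, 33.7 and 29.1 CPM at 10 dpa, against 109.8, 122 and 60.9 CPM at 0 dpa, log2 change -1.46 ± 0.25, adjusted p = 0.00421) and the zinc finger gene KLF3 (32.2, 29.7 and 24.9 CPM at 10 dpa, against 102, 80.4 and 103 CPM at 0 dpa, log2 change -1.71 ± 0.24, adjusted p = 0.00183). In each of these genes the stages did not overlap.

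Of 33 clock genes 1 rose and 3 fell, beside 6.62% and 2.78% of all genes. The 10 dpa libraries lay below the 0 dpa libraries in 13 of the 33 and above them in 1, beside 14.5% and 19.5% of all genes, and the median log2 change was -0.70, beside 0.04 over all genes. Of the clock genes, 1 was lower without 10 dpa replicate 2 or 3 or 0 dpa replicate 1 or 2. With the 6 libraries alone in the fit, 9 were lower. The gene hlfa, of the PAR bZIP output factors, had 92.8, 69.0 and 92.7 CPM at 10 dpa, against 356, 383 and 299.8 CPM at 0 dpa (log2 change -2.03 ± 0.28, adjusted p = 0.00144). The gene bmal2, of the activating arm, had 36.4, 36.0 and 57.9 CPM at 10 dpa, against 22.0, 8.56 and 18.3 CPM at 0 dpa (log2 change 1.41 ± 0.31, adjusted p = 0.0134). The gene bmal2 missed the threshold without 10 dpa replicate 3 (adjusted p = 0.0610). The labels give no time of day for the sampling. Of 27 immediate early and heat shock genes 3 rose and 2 fell, beside the same 6.62% and 2.78% of all genes. Those that rose were GADD45B (log2 change 2.47, adjusted p = 0.00445) and both identifiers of the collagen chaperone SERPINH1, 1 of them given above. The other SERPINH1 identifier (ENSDARG00000019949) had a log2 change of 1.96 (adjusted p = 0.0386). That identifier missed the threshold with any library other than 10 dpa replicate 3 left out (adjusted p = 0.0710 to 0.155 in these fits). Of the 27, 1 was lower without 10 dpa replicate 1, 2 or 3 or 0 dpa replicate 2. None was lower without 0 dpa replicate 1. The heat shock gene hsp70l had 0.730, 0.349 and 0.620 CPM at 10 dpa, against 3.85, 2.08 and 2.68 CPM at 0 dpa (log2 change -2.35 ± 0.47, adjusted p = 0.00850). The gene hsp70l missed the threshold without 0 dpa replicate 1 (adjusted p = 0.0507). Of 35 oxidative phosphorylation genes 1 rose, none fell and 24 had intervals within 2-fold, beside 6.62%, 2.78% and 42.2% of all genes. In the other lists 1 of 16 lipid and adipocyte genes rose, 2 of 15 goblet, club cell and ionocyte genes rose and 2 fell, 1 of 17 lymphocyte genes rose, and 1 of 27 interferon and antigen presentation genes rose and 2 fell, beside 6.62% and 2.78% of all genes. Each of these counts was 0 in at least 1 of the fits with 1 library left out. Summed over the interferon and antigen presentation list, levels were 7031 to 12684 CPM at 10 dpa, against 18635 to 21652 CPM at 0 dpa, and the cd74a and cd74b genes, which the macrophage list also holds, made up most of that sum.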
